A study of Mus musculus with 32 samples.

Results

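The comparison described here set 4 iCre libraries against 4 LacZ libraries of cultured mouse cardiac fibroblasts that received no cytokine or growth factor stimulus. These 8 libraries were taken from 32 in all by their titles, which carry the code SS, and iCre and LacZ libraries were compared within pairs of the same replicate number, 1 to 4. The iCre group was transduced with iCre, a codon-improved Cre recombinase, and the LacZ group, its control, with LacZ, which encodes beta-galactosidase and recombines nothing. All cells, LacZ controls included, are given as Pkm2fl/fl on C57BL/6J and were used at passage 1. The growth medium before treatment held bFGF at 20 ng/ml, a supplement of insulin, transferrin and selenium at 1%, and serum at 10%. The other 24 libraries hold the same vectors under basic fibroblast growth factor (bFGF), interleukin-1 beta (IL-1b) or transforming growth factor beta (TGFb) for 24 h. The labels give no age, and do not say whether a replicate number is a mouse, a preparation or a day, and p-values therefore measure the spread between these samples, which may be technical. They name neither the kind of vector nor the share of cells recombined.

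The labels conflict in a few places. The treatment tags of the LacZ SS libraries read bFGF while their titles read SS, and the titles were followed. Spry4, an ERK feedback inhibitor that FGF induces and that was picked for this check after its values were seen, averaged 16.03 ± 7.68 CPM (counts scaled to library size) in iCre SS libraries and 14.7 ± 9.61 CPM in LacZ SS libraries (SD, n = 4 each). By library 1 to 4 it had 12.3, 10.0, 14.7 and 27.2 CPM in iCre SS, and 8.03, 7.72, 28.3 and 14.9 CPM in LacZ SS, where number 3 was the highest. The libraries titled bFGF averaged 93.6 CPM with iCre and 117 CPM with LacZ. The protocol text speaks of TAK1fl/fl mice, while the genotype and the design text give Pkm2fl/fl. Map3k7, the gene of TAK1, had 121, 106, 126 and 94.7 CPM in iCre libraries 1 to 4, against 116, 117, 128 and 101 CPM in LacZ libraries. Its fitted difference was -0.05 ± 0.07 on the log2 scale (SE, adjusted p = 0.939). Pkm was lower in iCre in 4 of 4 pairs. A count over a whole gene shows the loss of 1 exon at most in part, so neither value checks an allele directly.

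Pyruvate kinase catalyses the last step of glycolysis, the transfer of phosphate from phosphoenolpyruvate to ADP. The Pkm gene makes 2 forms by including 1 of 2 mutually exclusive exons. PKM1 is constitutively active and typical of adult muscle and brain, while PKM2, typical of proliferating cells, is activated by fructose bisphosphate and can switch to a less active state. A floxed Pkm2 allele in general use carries loxP sites around the PKM2-specific exon, so that Cre removes the exon PKM2 needs and leaves that of PKM1. The labels do not say which exon is floxed in these mice, and the series title names a switch from PKM2 to PKM1. Counts per gene do not separate the 2 exons, so the switch itself was not measured here.

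The 2 alternative exons are shown because they are the segment that separates the 2 forms. Both are 167 bases long and lie on the + strand of chromosome 9 (GRCm38, GENCODE M21). They are identical at 103 positions and differ at 64, which are in capitals. The PKM1-specific exon, exon 9 along the gene (transcript Pkm-202), is at chr9:59675029-59675195. The PKM2-specific exon, exon 10 (transcript Pkm-201), is at chr9:59675568-59675734.
PKM2-specific exon: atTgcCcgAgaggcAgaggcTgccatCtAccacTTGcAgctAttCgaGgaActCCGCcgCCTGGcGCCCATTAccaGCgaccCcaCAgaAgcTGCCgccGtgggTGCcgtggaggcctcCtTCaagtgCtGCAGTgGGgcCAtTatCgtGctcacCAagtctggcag
PKM1-specific exon: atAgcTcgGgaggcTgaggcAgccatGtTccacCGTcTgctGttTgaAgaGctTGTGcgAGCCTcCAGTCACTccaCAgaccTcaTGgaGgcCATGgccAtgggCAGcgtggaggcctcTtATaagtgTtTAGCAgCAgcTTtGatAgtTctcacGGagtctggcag

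Pkm (ENSMUSG00000032294, chr9:59656368-59679375, + strand) was the gene that recombination was meant to change. It had 550, 382, 777 and 425 CPM in iCre libraries 1 to 4, against 762, 646, 1141 and 595 CPM in LacZ libraries. The iCre library was the lower one in each pair, while the groups overlapped because number 3 was high with both vectors. Pkm averaged 533 ± 177 CPM in iCre and 786 ± 247 CPM in LacZ (SD, n = 4 each), and fell 0.675-fold in the paired fit (log2 difference -0.57 ± 0.08 SE, adjusted p = 0.0176). The 4 within-pair log2 ratios were -0.47, -0.76, -0.55 and -0.49. An exact two-sided sign-flip test on these 4 ratios gave p = 0.12, the smallest that 4 pairs allow. The adjusted p was 0.105 when the 8 SS libraries were fitted alone. A same-strand predicted gene, Gm49759, overlaps Pkm, so some reads may not be assignable to either.

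**Figure D1:**
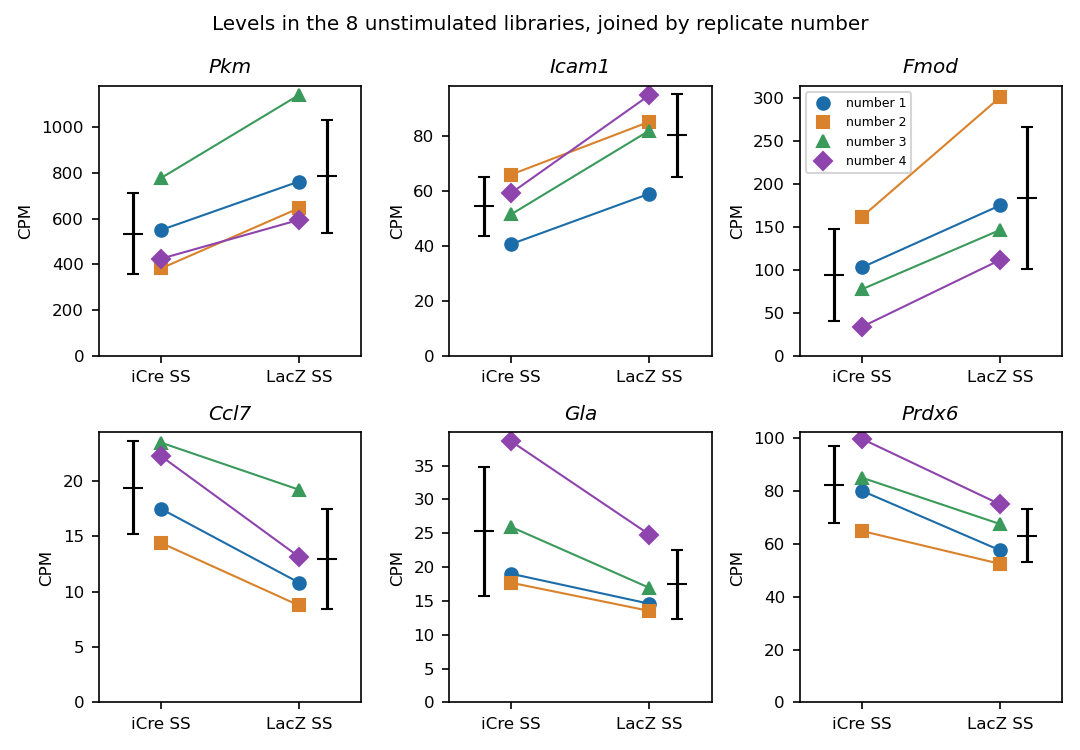
CPM (linear axis from 0) of Pkm, Icam1, Fmod, Ccl7, Gla and Prdx6 in the iCre SS libraries (left) and LacZ SS libraries (right). Lines join libraries of the same replicate number, and black bars give the mean ± SD of 4. Pkm, Icam1 and Fmod were lower in iCre in 4 of 4 pairs, and Ccl7, Gla and Prdx6 higher in 4 of 4.

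The libraries held 24425678 to 30647026 counts with iCre and 20736203 to 25205514 with LacZ, and in each pair iCre had more, by 1.07 to 1.22 times. Fibroblast genes were high in every library: Col1a1, a chain of type I collagen, ran from 4594 to 10031 CPM in iCre and from 7341 to 11270 CPM in LacZ. Myh6, a cardiomyocyte myosin, was at most 0.111 CPM in iCre and 0.0412 CPM in LacZ. Pecam1 of endothelial cells was at most 0.851 CPM in iCre and 1.17 CPM in LacZ. Ptprc, the pan-leukocyte CD45 gene, ran from 1.26 to 18.0 CPM in iCre and from 1.01 to 11.5 CPM in LacZ. The number 4 libraries stood apart: their 19 fibroblast markers summed to 27652 CPM in iCre and 42620 CPM in LacZ, the lowest of each group. In these bulk samples fewer cells of a type and less RNA per cell cannot be told apart.

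Beside Pkm, 13 genes passed an adjusted p of 0.05. Of 16760 genes tested 14 were called (0.0835%), 8 higher (0.0477%) and 6 lower (0.0358%) in iCre. At an unadjusted p of 0.05, 635 genes were higher (3.79%) and 689 lower (4.11%), together 7.9% of those tested. The model held 1 block for each of the 16 pairs of condition and number, and estimated the spread from all 32 libraries with 12 residual degrees of freedom. Since the 16 pairs share 4 numbers, these p-values may be too small. With the 8 SS libraries alone, which leave 3 residual degrees of freedom, edgeR called 0 genes and 1463 of 15085 (9.7%) had an unadjusted p under 0.05. DESeq2 with the pair blocks called 60 of the 16760 genes, 21 higher and 39 lower. Counts of list members given below have these values over all genes as their background. The 12 of the 14 called genes that could be tested in the 8 libraries alone had adjusted p from 0.0521 to 0.242 there. Leaving out any 1 number from SS left 0 to 2 calls.

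The 5 genes that fell beside Pkm encode matrix, adhesion and metabolic proteins and a transcription factor. Fmod encodes fibromodulin, a small leucine-rich proteoglycan that binds collagen fibrils (chr1:134037254-134048277, + strand). It had 103, 162, 77.5 and 33.7 CPM in iCre libraries 1 to 4, against 175, 301, 146 and 112 CPM in LacZ libraries. It fell 0.476-fold (log2 difference -1.07 ± 0.17, adjusted p = 0.0347), with the largest step in number 4. Spon1 encodes F-spondin, a secreted matrix protein (chr7:113765998-114043370, + strand). It had 4.01, 7.69, 2.33 and 9.14 CPM in iCre, against 8.99, 14.6, 5.52 and 22.6 CPM in LacZ, a 0.448-fold level (log2 difference -1.16 ± 0.19, adjusted p = 0.027). Both matrix genes were lower in iCre in 4 of 4 pairs, with groups that overlapped.

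Icam1, an adhesion molecule that leukocyte integrins bind and an NFkB target (chr9:21015985-21028817, + strand), had 40.7, 66.0, 51.6 and 59.3 CPM in iCre. The LacZ libraries had 59.0, 85.2, 82.0 and 94.9 CPM. It fell 0.677-fold (log2 difference -0.56 ± 0.08, adjusted p = 0.0176), and a predicted gene, Gm47079, overlaps it on the other strand. Aass encodes the mitochondrial enzyme of the first steps of lysine breakdown (chr6:23072173-23132986, - strand). It had 4.09, 2.87, 4.33 and 2.68 CPM in iCre, against 7.08, 6.18, 7.66 and 5.46 CPM in LacZ. Aass was the only called gene whose 4 iCre values all lay below the 4 LacZ values, a pattern that 0.692% of tested genes had. It fell 0.524-fold (log2 difference -0.93 ± 0.14, adjusted p = 0.0202). Atoh8, a basic helix-loop-helix transcription factor (chr6:72206177-72235577, - strand), had 108, 82.7, 78.7 and 26.7 CPM in iCre and 137, 143, 105 and 46.4 CPM in LacZ. It fell 0.668-fold (log2 difference -0.58 ± 0.10, adjusted p = 0.0399), lower in iCre in each pair.

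Of the 8 genes that rose, 4 were expressed in all 8 libraries at several CPM or more. Ccl7 encodes a chemokine that attracts monocytes (chr11:82045712-82047525, + strand). It had 17.5, 14.4, 23.4 and 22.2 CPM in iCre libraries 1 to 4, against 10.8, 8.75, 19.2 and 13.1 CPM in LacZ libraries. It rose 1.53-fold (log2 difference 0.61 ± 0.10, adjusted p = 0.0347). The summed level of 14 leukocyte markers ran from 69.2 to 816 CPM in iCre and from 77.8 to 639 CPM in LacZ, with 12 of the 14 fitted below 0 and 2 above. Their part in the Ccl7 and Icam1 results was not tested.

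Prdx6, a peroxiredoxin that reduces peroxides and phospholipid hydroperoxides (chr1:161240112-161251219, - strand), had 80.2, 65.0, 85.2 and 99.9 CPM in iCre. LacZ libraries had 57.6, 52.5, 67.6 and 75.1 CPM. It rose 1.30-fold (log2 difference 0.38 ± 0.07, adjusted p = 0.0491), with number 4 the highest under both vectors. Gla, the lysosomal alpha-galactosidase A (chrX:134588149-134601125, - strand), had 19.0, 17.7, 25.9 and 38.6 CPM in iCre, against 14.6, 13.5, 16.9 and 24.8 CPM in LacZ. It rose 1.42-fold (log2 difference 0.51 ± 0.09, adjusted p = 0.0491). Tuba4a, an alpha-tubulin (chr1:75214228-75219865, - strand), had 6.59, 5.41, 9.43 and 19.4 CPM in iCre, against 4.64, 3.98, 4.94 and 13.2 CPM in LacZ. Its log2 difference was 0.61 ± 0.11 (adjusted p = 0.0347). Stk16 overlaps it on the other strand, and the strand setting of the counting is not given in the sources used here. All of Ccl7, Prdx6, Gla and Tuba4a were higher in iCre in 4 of 4 pairs.

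The other 4 genes that rose had most of their counts in the number 4 pair. Slc14a1, the urea transporter UT-B, had 0.0405, 1.23, 0.444 and 89.8 CPM in iCre, against 0.0434, 0.562, 0.165 and 30.4 CPM in LacZ. The number 4 library held 98.6% of its counts in iCre and 98.0% in LacZ, and pair 1 did not rise, at -0.01 on the log2 scale. Its fitted log2 difference was 1.46 ± 0.19 (adjusted p = 0.0176), and 1.14 (adjusted p = 0.777) without number 4. Igf2, insulin-like growth factor 2 (chr7:142650766-142666816, - strand), had 9, 19, 24 and 419 counts in iCre and 5, 3, 5 and 59 in LacZ. It rose by 2.14 ± 0.39 (log2, adjusted p = 0.0491), and without number 4 its adjusted p was 0.736. Its locus overlaps Mir483, Gm49394 and the antisense gene Igf2os.

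Adamdec1, a metalloprotease of the ADAM family, had 4, 7, 7 and 60 counts in iCre and 0, 0, 0 and 8 in LacZ (log2 difference 3.05 ± 0.53, adjusted p = 0.0347, and 0.185 without number 4). Cyp2f2, a cytochrome P450 (chr7:27119909-27133660, + strand), had 1, 0, 8 and 113 counts in iCre and 0, 0, 0 and 8 in LacZ (log2 difference 3.56 ± 0.54, adjusted p = 0.0347, and 0.708 without number 4). Without number 4 the fitted log2 differences were 5.63 for Adamdec1 and 4.69 for Cyp2f2, and 1.74 for Igf2. Fitted folds of Adamdec1 and Cyp2f2 depend on the small count that the fit adds to 0 and give no bound. Igf2, Adamdec1 and Cyp2f2 were also not called when number 1, 2 or 3 was left out, while Slc14a1 was still called in each of those 3 fits.

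**Figure D2:**
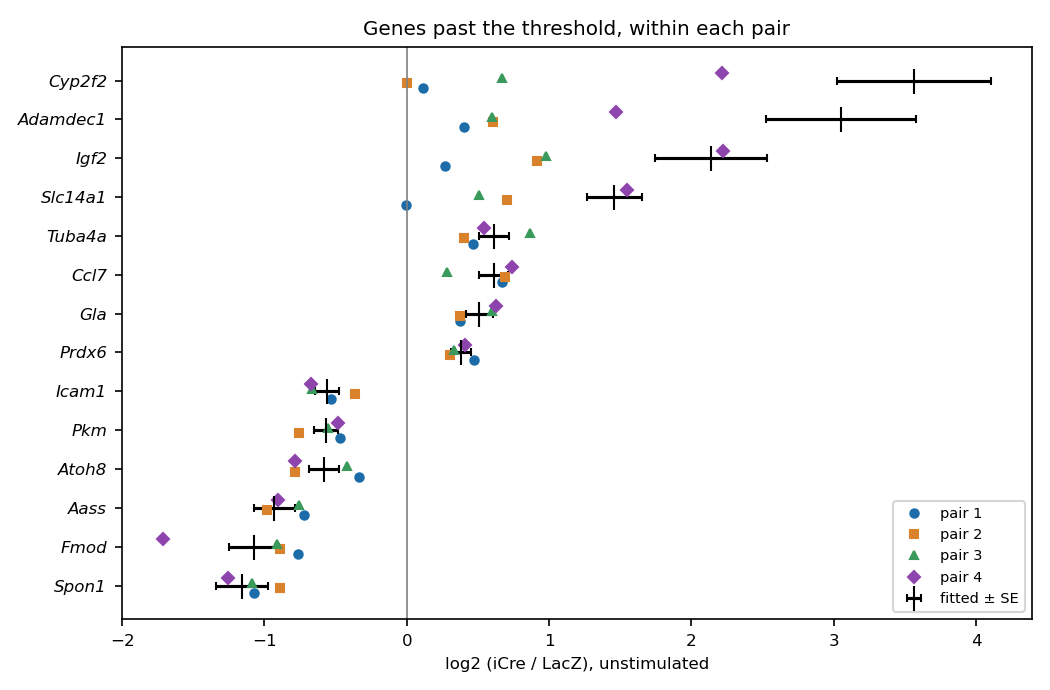
Log2 ratios of iCre over LacZ for the 14 called genes in unstimulated cells. Coloured symbols are the 4 within-pair ratios of CPM + 0.5, and black marks are fitted log2 differences ± SE. All 4 pairs of 12 genes lie on the side of the fitted value, the exceptions being Slc14a1 and Cyp2f2, and fitted values exceed the pair ratios for Cyp2f2 and Adamdec1, whose counts are near 0.

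The same genes were then read in the bFGF, IL-1b and TGFb libraries, which the SS values did not use but which share the replicate numbers and the estimate of spread. The fitted direction was that of SS for 14 of 14 genes in bFGF, 13 in IL-1b and 13 in TGFb. Of these, 7 passed an adjusted p of 0.05 in bFGF (0.0895% of all genes did, in either direction), 0 in IL-1b (0% of all genes, 5.76% at an unadjusted p of 0.05) and 4 in TGFb (0.274%). The share of all tested genes that kept their SS direction is not given here, so the counts of direction have no background to be read against. Pkm had log2 differences of -0.48 in bFGF (adjusted p = 0.0284), -0.52 in IL-1b (0.0623) and -0.48 in TGFb (0.0159). Fmod was at -1.38 in bFGF (0.00652), Spon1 at -1.32 (0.00652), Aass at -1.11 (0.00485) and Icam1 at -0.59 (0.00652). Ccl7 was at 0.39 in bFGF (0.159), 0.02 in IL-1b (0.984) and 0.67 in TGFb (0.00784). Prdx6 was the exception in direction, at 0.29 in bFGF but -0.09 in IL-1b and -0.01 in TGFb. The difference between its SS value and the mean of the other conditions was 0.31 (unadjusted p = 0.00113, adjusted p = 1).

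No difference between SS and the other conditions passed the test. The contrast of the SS difference with the mean of the other 3 conditions called 0 of 16760 genes in edgeR, with 303 (1.81%) at an unadjusted p of 0.05, and 0 in DESeq2.

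**Figure D3:**
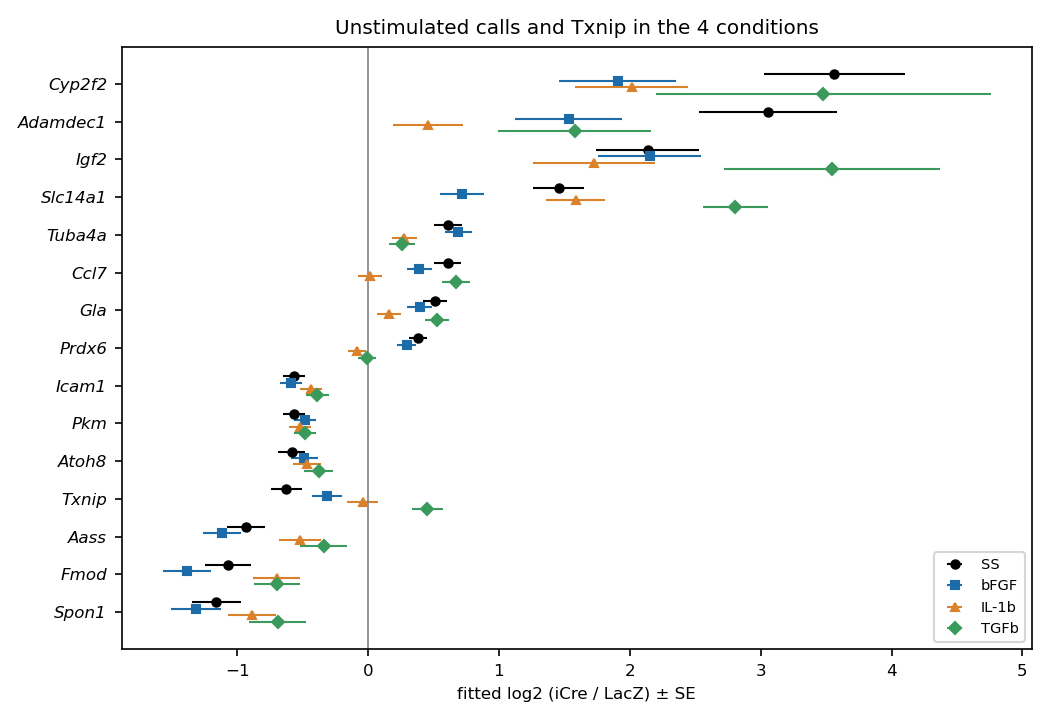
Fitted log2 differences of iCre over LacZ (± SE) in SS, bFGF, IL-1b and TGFb for the 14 genes called in SS and Txnip. Pkm lies between -0.57 and -0.48 in the 4 conditions, while Txnip lies at -0.62 in SS and 0.45 in TGFb.

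Glycolysis genes other than Pkm were read next. Of 21 tested, 19 were fitted higher and 2 lower (over all genes 50% stood on either side), with a median log2 difference of 0.13, against 0 over all 16760 genes. None was called by edgeR or DESeq2, and 4 were higher and 0 lower at an unadjusted p of 0.05 (over all genes 3.79% were higher and 4.11% lower). Slc2a1 encodes GLUT1, the basal glucose transporter. It had 51.0, 52.1, 52.8 and 60.5 CPM in iCre, against 36.3, 37.7, 41.2 and 42.4 CPM in LacZ, and the groups did not overlap (0.77% of tested genes had all 4 iCre values above all LacZ values). Its log2 difference was 0.46 ± 0.12 (adjusted p = 0.244). Hk2, the inducible hexokinase, had 20.3, 13.5, 29.6 and 25.0 CPM in iCre, against 10.7, 9.69, 14.9 and 23.5 CPM in LacZ (log2 difference 0.61 ± 0.28, adjusted p = 0.628). DESeq2, fitted to all 32 libraries, gave adjusted p of 0.0666 for Slc2a1 and 0.342 for Hk2. With number 4 left out of SS alone the edgeR adjusted p was 0.762 for Slc2a1 and 0.876 for Hk2. With number 4 left out of every condition, a fit added after the data were seen, the edgeR adjusted p was 0.0499 for Slc2a1 and 0.0457 for Hk2. Eno2, an enolase, had a log2 difference of 0.32 ± 0.15 (adjusted p = 0.624) and Tpi1, triose phosphate isomerase, 0.17 ± 0.07 (0.582), both higher in iCre in 4 of 4 pairs. The list median within pairs was 0.30, 0.16, 0.07 and 0.01 for numbers 1 to 4, so it was close to 0 in number 4. In bFGF, IL-1b and TGFb 20, 21 and 20 of the 21 were fitted higher, against 49.4%, 48.3% and 50.6% of all genes.

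Pathways below and beside pyruvate had medians near 0. Of 25 genes of pyruvate and lactate fate 11 were fitted higher and 14 lower (median 0.00), and none was called. Pdk1, a kinase that inhibits pyruvate dehydrogenase, was at 0.29 ± 0.11 (adjusted p = 0.502). The TCA cycle list had 17 higher and 4 lower of 21 (median 0.06), the pentose phosphate list 6 and 3 of 9 (median 0.05), and the serine and one-carbon list 6 and 10 of 16 (median -0.05). Of 26 oxidative phosphorylation genes 17 were higher and 9 lower (median 0.04), and of 22 fatty acid oxidation genes 14 were higher and 8 lower (median 0.03). None of these members was called by edgeR or DESeq2, and at an unadjusted p of 0.05 the lists had, in this order, 2 higher and 2 lower, 1 and 0, 2 and 0, 0 and 2, 1 and 0, and 0 and 1. The 11 regulators of Pkm splicing had 7 higher and 4 lower, a median of 0.02, and 0 at an unadjusted p of 0.05.

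Txnip and Arrdc4, singled out after their values were seen, encode alpha-arrestins that restrain glucose uptake and are induced by glucose through the factor MondoA. Txnip had 312, 401, 222 and 345 CPM in iCre libraries 1 to 4, against 576, 551, 401 and 424 CPM in LacZ libraries. It was lower in iCre in 4 of 4 pairs and lay just outside the threshold, at a log2 difference of -0.62 ± 0.12 (adjusted p = 0.0529). Arrdc4 had 10.03, 10.97, 11.3 and 23.3 CPM in iCre, against 20.1, 18.8, 16.3 and 24.5 CPM in LacZ (log2 difference -0.58 ± 0.15, adjusted p = 0.227). Its step in number 4 was the smallest of the 4. With number 4 left out of SS alone adjusted p was 0.168 for Txnip and 0.185 for Arrdc4, and with number 4 left out of every condition, added after the data were seen, 0.00803 and 0.0297. In the other conditions Txnip was at -0.31 in bFGF, -0.04 in IL-1b and 0.45 in TGFb (adjusted p = 0.148). The SS value of Txnip minus the mean of the others was -0.66 ± 0.14 (unadjusted p = 0.000148, adjusted p = 1).

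The promoter stretch of Txnip is shown for the element known to bind MondoA and its partner Mlx. The carbohydrate response element was searched as CACGNG, 5 bases of any kind and CACGNG again, on both strands of the 250 bases before each start site in RefSeq (GRCm38.p6). It stood in 15 of 32851 promoters (0.0457%), Txnip among them and Arrdc4 not. The match, in capitals, begins 85 bases before the start, in the stretch at chr3:96557812-96557948 (+ strand), and describes the sequence only.
Txnip promoter: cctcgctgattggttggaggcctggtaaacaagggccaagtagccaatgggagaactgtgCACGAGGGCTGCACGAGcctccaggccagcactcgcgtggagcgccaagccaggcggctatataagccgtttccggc

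Genes of cholesterol synthesis lay below 0 as a group in SS. Sterol synthesis runs from acetyl-CoA through mevalonate and squalene, and its genes share the transcription factor SREBP2, which is released when membrane sterol is low. Of 20 genes tested, 19 were fitted lower and 1 higher in iCre, with a median log2 difference of -0.27. Called members numbered 0 in edgeR and 3 in DESeq2, all lower, where DESeq2 called 39 of all 16760 genes lower. At an unadjusted p of 0.05, 11 were lower and 0 higher, against 4.11% and 3.79% of all genes. In 4 of 4 pairs 8 of the 20 were lower, against 8.9% of all genes. The list median within pairs was -0.33, -0.41, -0.03 and -0.40, so it was near 0 in number 3.

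Fdps makes farnesyl diphosphate, the branch point to sterols and prenylated proteins. It had 5.54, 12.9, 7.25 and 30.1 CPM in iCre, against 11.03, 24.3, 8.69 and 52.1 CPM in LacZ (log2 difference -0.75 ± 0.14, adjusted p = 0.0529). Idi1, the isomerase one step before it, had 1.62, 5.37, 1.33 and 11.99 CPM in iCre, against 4.17, 9.17, 2.39 and 19.6 CPM in LacZ (-0.88 ± 0.18, adjusted p = 0.095). In both genes the levels differed more between numbers than between vectors, with numbers 2 and 4 high under both. Hmgcs1, the synthase at the entry to the pathway, was at -0.42 ± 0.11 (adjusted p = 0.22), and lower in iCre in 3 of 4 pairs.

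The sterol uptake and SREBP control list was more mixed, with 7 higher and 8 lower of 15 (median -0.13), none called by edgeR and 2 called lower by DESeq2, Stard4 among them. Stard4, a cytosolic cholesterol carrier, had 4.73, 10.0, 3.62 and 15.0 CPM in iCre, against 10.5, 18.3, 5.60 and 24.3 CPM in LacZ (-0.83 ± 0.16, adjusted p = 0.0542). Srebf2, the gene of SREBP2 itself, was at -0.42 ± 0.11 (adjusted p = 0.232). Both were lower in iCre in 4 of 4 pairs. In the other conditions the cholesterol synthesis median was -0.03 in bFGF, -0.22 in IL-1b and -0.56 in TGFb, where 10 of 20 were called lower (0.107% of all genes were). The difference of SS from those conditions was not called for any gene.

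The promoter of Hmgcs1 is shown for the sterol regulatory element, the sequence that SREBP binds. Its core, CACCCCAC, was searched on both strands of the same 250-base windows. It stood in 2 of 18 promoters of the 15 cholesterol synthesis genes that RefSeq's table holds (11.1%, Hmgcs1 and Acat2), against 846 of 32851 promoters in all (2.58%). In Hmgcs1 it begins 136 bases before the start, in capitals in the stretch at chr13:119690155-119690282 (+ strand). An absent match says only that these letters are not in the window.
Hmgcs1 promoter: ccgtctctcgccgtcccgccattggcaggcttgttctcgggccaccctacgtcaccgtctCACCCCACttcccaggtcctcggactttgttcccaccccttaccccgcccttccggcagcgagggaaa

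**Figure D4:**
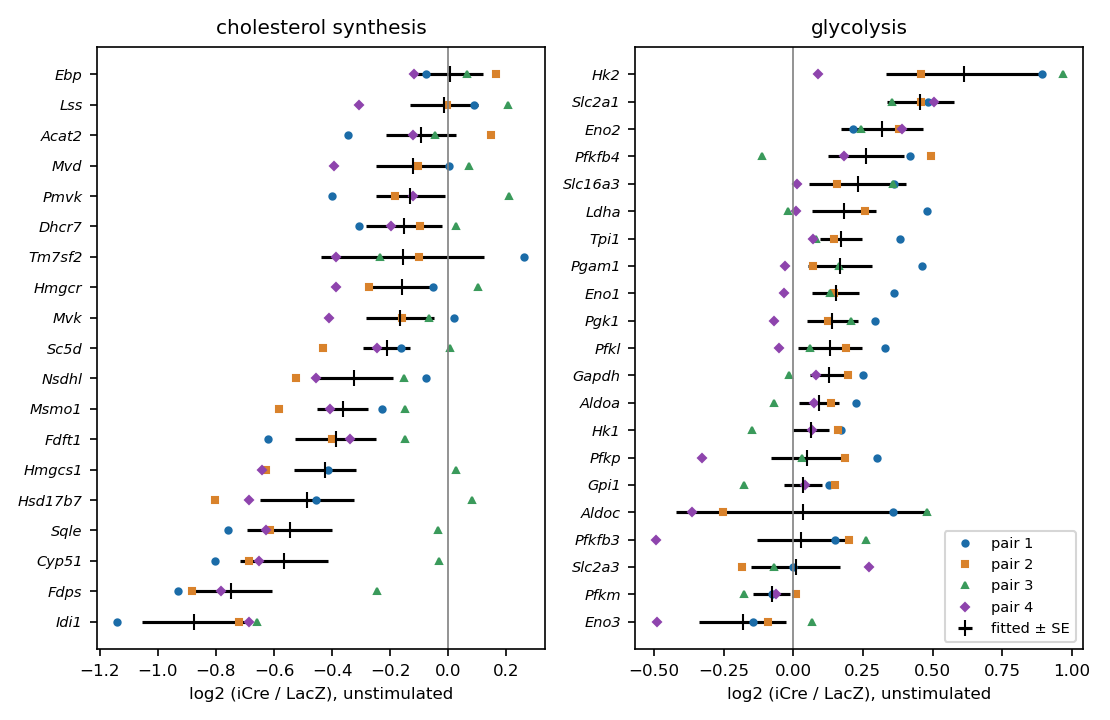
Log2 ratios of iCre over LacZ in unstimulated cells for 19 of the 20 cholesterol synthesis genes (left panel) and 21 glycolysis genes (right panel). Symbols are the 4 within-pair ratios and black marks the fitted difference ± SE, with 18 of 19 fitted values below 0 on the left and 19 of 21 above 0 on the right.

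Targets of NRF2, the transcription factor of the oxidant response, were mostly fitted higher. Of 17 tested, 16 were higher and 1 lower, with a median of 0.16. In edgeR 0 were called and in DESeq2 2, both higher, where DESeq2 called 21 of all 16760 genes higher. At an unadjusted p of 0.05, 6 were higher and 1 lower, against 3.79% and 4.11% of all genes. The list median was positive within each pair, at 0.22, 0.15, 0.12 and 0.22. Srxn1, sulfiredoxin, had 64.9, 65.6, 73.4 and 92.5 CPM in iCre, against 49.8, 47.5, 56.2 and 69.2 CPM in LacZ (0.41 ± 0.09, adjusted p = 0.106). Hmox1, the haem-degrading oxygenase, had 143, 124, 192 and 225 CPM in iCre, against 122, 112, 112 and 163 CPM in LacZ (0.40 ± 0.10, adjusted p = 0.184). Both were higher in iCre in 4 of 4 pairs. Aldh3a1, an aldehyde dehydrogenase, was the member below 0, at -0.81 ± 0.22 (adjusted p = 0.299). The list was not on 1 side elsewhere: 10 of 17 were fitted higher in bFGF, 4 in IL-1b and 13 in TGFb.

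Matrix genes were mostly fitted lower. Of 36 extracellular matrix genes 30 were lower and 6 higher, with a median of -0.23. Fmod was the 1 that edgeR called, and DESeq2 called Fmod and Comp, both lower, where it called 39 of all 16760 genes lower. At an unadjusted p of 0.05, 10 were lower and 1 higher, against 4.11% and 3.79% of all genes. Comp, a pentameric protein that assembles collagen, had 3.64, 2.99, 3.18 and 2.15 CPM in iCre, against 10.5, 6.22, 5.64 and 5.78 CPM in LacZ. Its 4 iCre values lay below all LacZ values, as they did in 0.692% of tested genes, at a log2 difference of -1.21 ± 0.23 (adjusted p = 0.0524). Col1a1 was at -0.30 ± 0.12 (adjusted p = 0.502). Within pairs the list median was -0.06, -0.31, -0.07 and -0.56, most negative in number 4.

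Contractile genes, those of the myofibroblast cytoskeleton, had 17 lower and 2 higher of 19 (median -0.21), with pair medians of 0.02, -0.24, 0.01 and -0.53. None was called by edgeR, and Actg2, a smooth muscle actin, was called lower by DESeq2. Actg2 was low, at a mean of 0.614 CPM in iCre and 1.88 CPM in LacZ. Its edgeR adjusted p was 0.2265, and 0.869 with number 4 left out of SS alone. Fibroblast markers had 15 lower and 4 higher of 19 (median -0.30), none called by either tool, and pair medians of -0.21, -0.11, -0.19 and -0.55. At an unadjusted p of 0.05, 7 of them were lower, against 4.11% of all genes. Dpt, dermatopontin of the matrix, had a log2 difference of -0.35 ± 0.10 (adjusted p = 0.302) and Gsn, the actin-severing gelsolin, of -0.37 ± 0.10 (0.258). The summed fibroblast markers were 56287, 55837, 52552 and 27652 CPM in iCre, against 64201, 65537, 51927 and 42620 CPM in LacZ. Number 4 of iCre was the lowest of the 8, and number 3 was slightly higher in iCre than in LacZ. The part of cell identity in the matrix and contractile values was not tested. The matrix median of iCre over LacZ was -0.21 in bFGF (29 of 36 fitted lower) and -0.22 in IL-1b (33 of 36). In cells given TGFb, which induces many matrix genes, it was 0.00, with 18 fitted higher and 18 lower.

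Cell cycle genes had 28 lower and 4 higher of 32 (median -0.28), none called by edgeR or DESeq2. At an unadjusted p of 0.05, 9 were lower and 0 higher, against 4.11% and 3.79% of all genes. Pair medians were 0.04, -0.31, -0.48 and -0.07. Ccnb2, cyclin B2 of mitosis, had 4.98, 2.57, 9.87 and 1.65 CPM in iCre, against 7.73, 4.96, 14.3 and 2.12 CPM in LacZ (-0.62 ± 0.18, adjusted p = 0.302). Bub1b, the spindle checkpoint kinase BUBR1, was at -0.50 ± 0.14 (adjusted p = 0.282). The median was -0.19 in bFGF, -0.10 in IL-1b and -0.21 in TGFb.

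Signalling targets were divided. Of 29 NFkB targets and cytokines 18 were fitted higher and 11 lower (median 0.07), with Ccl7 called higher and Icam1 lower by edgeR. DESeq2 called 1 higher and 2 lower, the further one being Cxcl5, a neutrophil chemokine, at a log2 difference of -0.80 (adjusted p = 0.299 in edgeR and 0.04995 in DESeq2). TGFb targets had 17 lower and 3 higher of 20 (median -0.15), none called by either tool. At an unadjusted p of 0.05, 4 of them were lower, against 4.11% of all genes. Nox4, an NADPH oxidase that TGFb induces, was at -0.53 ± 0.14 (adjusted p = 0.227). Genes of ERK signalling and its feedback had 11 higher and 5 lower of 16 (median 0.18), none called by edgeR, Dusp5 called higher by DESeq2 and 2 higher at an unadjusted p of 0.05. They had pair medians of 0.37, 0.40, -0.57 and 0.52, so number 3 went the other way. Dusp5, a phosphatase of nuclear ERK, had 2.27, 4.40, 1.997 and 9.36 CPM in iCre, against 1.09, 1.498, 1.32 and 6.57 CPM in LacZ (0.89 ± 0.23, adjusted p = 0.227). Egr1, an immediate early transcription factor, had 35.3, 75.7, 28.3 and 135 CPM in iCre, against 26.2, 45.8, 16.1 and 93.2 CPM in LacZ (0.62 ± 0.18, adjusted p = 0.302). Both were higher in iCre in all 4 pairs, number 3 included. Interferon-stimulated genes had 16 higher and 14 lower of 30 (median 0.01), none called by either tool and 0 at an unadjusted p of 0.05, with pair medians that ran from 0.36 in number 1 to -0.49 in number 4.

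Of 14 iron handling genes 9 were fitted higher and 5 lower (median 0.08), with 0 called by edgeR, 2 higher and 1 lower at an unadjusted p of 0.05, and Tfrc called higher and Trf lower by DESeq2. Trf, transferrin, which carries iron in serum, had 40.0, 58.5, 41.7 and 41.7 CPM in iCre, against 66.8, 71.7, 111 and 112 CPM in LacZ (-0.97 ± 0.26, adjusted p = 0.266). Its groups did not overlap, and 0.692% of tested genes had all 4 iCre values below all LacZ values. Tfrc, the transferrin receptor, had 10.6, 6.94, 14.1 and 13.5 CPM in iCre, against 6.03, 5.57, 10.1 and 8.55 CPM in LacZ (0.57 ± 0.14, adjusted p = 0.175). Aldh1a2, the retinaldehyde dehydrogenase of epicardial cells and some fibroblasts, had 83.0, 107, 118 and 109 CPM in iCre, against 156, 192, 156 and 171 CPM in LacZ (-0.70 ± 0.16, adjusted p = 0.166). It stands in the list of mesothelial and epicardial markers, whose summed level was 137 to 183 CPM in iCre and 217 to 273 CPM in LacZ, while 4 of its 10 genes averaged under 1 CPM. Without Aldh1a2, which carried most of it, the sum overlapped between the groups, at 62.3, 58.5, 65.3 and 27.4 CPM in iCre and 67.8, 80.5, 60.5 and 47.3 CPM in LacZ. Of that list 4 were fitted higher and 5 lower of 9 (median -0.31).

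**Figure D5:**
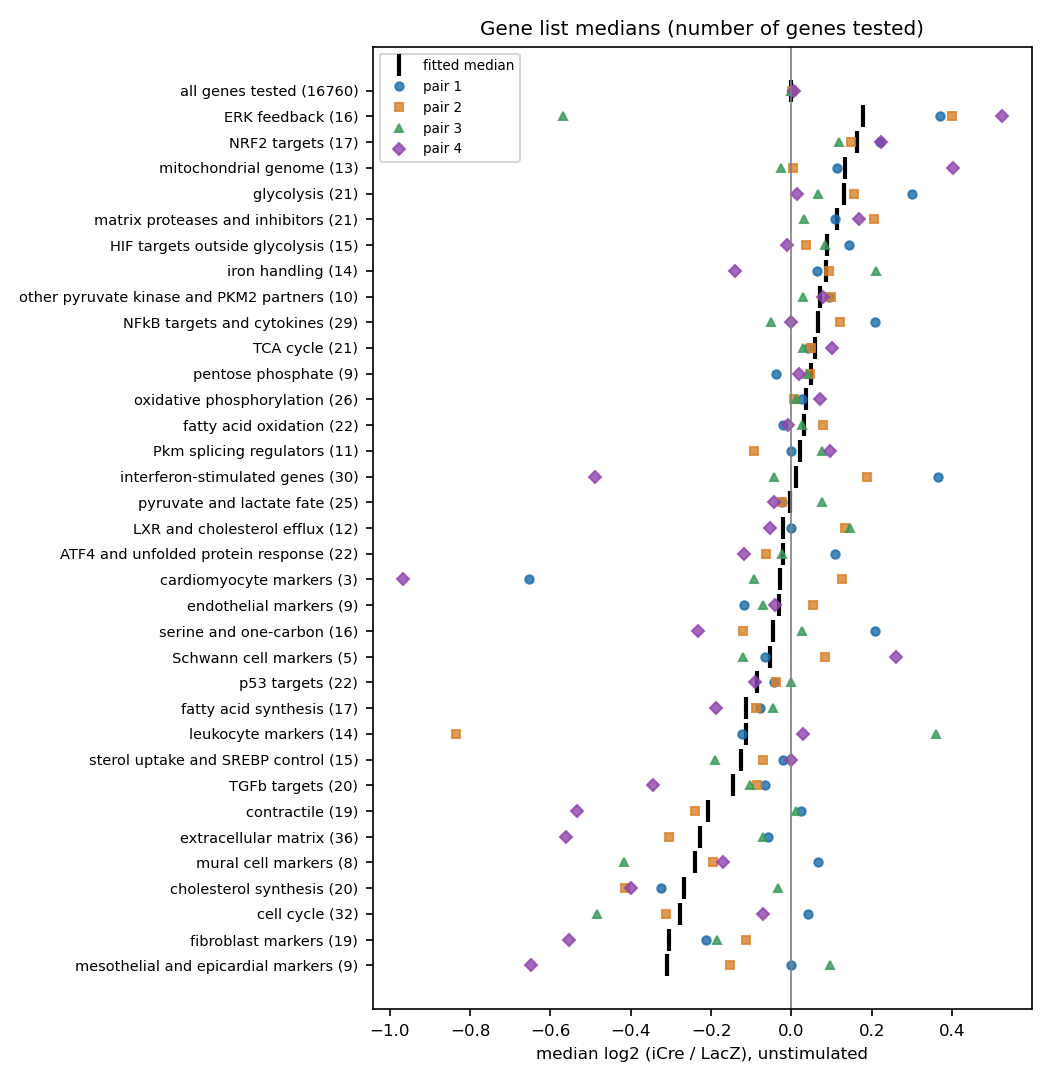
Median log2 ratio of iCre over LacZ in unstimulated cells for each of 34 gene lists and for all genes tested (top), with the number of genes tested in brackets. Black marks are medians of fitted values and coloured symbols the medians within each pair. Cholesterol synthesis (-0.27) and fibroblast markers (-0.30) are below 0 in all 4 pairs and NRF2 targets (0.16) above 0 in all 4. They are not alone in this. Extracellular matrix, TGFb targets, p53 targets, fatty acid synthesis and sterol uptake are also below 0 in all 4. Glycolysis, TCA cycle, oxidative phosphorylation, matrix proteases and pyruvate kinase partners are also above 0 in all 4. The cell cycle, ERK feedback and interferon lists are among those with pairs on both sides.

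Markers of cells other than fibroblasts were not called by edgeR in any list, and Aldh1a2 was the 1 that DESeq2 called. Cardiomyocyte markers summed to 22.5 to 92.1 CPM in iCre and 44.7 to 128 CPM in LacZ, with Nppa at 0 in all 8 libraries and 10 of 12 averaging under 1 CPM. Most of that sum was Tnnt2, troponin T, which had 35.2, 89.5, 28.3 and 18.9 CPM in iCre, against 55.7, 87.9, 43.7 and 125 CPM in LacZ (-0.96 ± 0.37, adjusted p = 0.503). Endothelial markers summed to 20.6 to 28.7 CPM in iCre and 21.3 to 39.1 CPM in LacZ, and 8 of 12 averaged under 1 CPM. Tek, the angiopoietin receptor, was at -0.62 ± 0.23 (adjusted p = 0.484). Mural cell markers summed to 160 to 655 CPM in iCre and 201.7 to 686 CPM in LacZ (2 higher and 6 lower of 8, median -0.24).

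Direction shared by all 4 pairs was common, at 1620 genes higher (9.67%) and 1491 lower (8.9%). Among those with a mean of at least 5 CPM, the largest minimum pair ratios upward were those of Tuba4a, Gla, Srxn1, Egr3, Egr1, Ifi205, Mdn1 and Hoxa5. Downward they included those of Aass, Spon1, Fmod, Comp, Idi1, Smtnl2 and Aldh1a3. Of the 16 genes so ranked, 8 in each direction, 5 passed the test. Hoxa5, a homeobox gene, shows how levels differed by number: it had 1.01, 6.46, 0.370 and 18.9 CPM in iCre, against 0.347, 2.06, 0.165 and 14.3 CPM in LacZ (1.02 ± 0.41, adjusted p = 0.538). Smtnl2, a smoothelin-like gene, had 4.65, 8.69, 2.37 and 0.531 CPM in iCre, against 15.0, 18.0, 4.04 and 5.13 CPM in LacZ (-1.57 ± 0.43, adjusted p = 0.282). Aldh1a3, another retinaldehyde dehydrogenase, had 5.42, 7.02, 3.88 and 1.23 CPM in iCre, against 11.3, 18.5, 7.33 and 4.96 CPM in LacZ (-1.30 ± 0.50, adjusted p = 0.521). Ifi205, an interferon-inducible gene, was at 0.72 ± 0.28 (adjusted p = 0.52), Mdn1, a ribosome assembly ATPase, at 0.61 ± 0.24 (0.537) and Egr3, a relative of Egr1, at 0.85 ± 0.24 (0.302).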

How the data were processed

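The labels and their protocols name poly(A) RNA, RNA extraction with the RNeasy Micro kit, and NEBNext Ultra II libraries. The authors deposited raw counts per gene for 32 libraries (55414 genes). FastQC 0.10.1 and HTSeq 0.10.0 against mm10/GRCm38 are named in the submitters' processing notes. Which aligner, annotation and counting options (strand, mode) were used is not given in the sources used here. GENCODE M21 gave symbols to 52133 IDs, which held 99.77% of the counts. Chi-square per degree of freedom was at least 13.0 for each pair of SS libraries, so none was a copy of another.

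CPM uses TMM effective library sizes. edgeR 4.0.16 (R 4.3.3) fitted the counts by robust quasi-likelihood with TMM factors, the default filter by group, 16 blocks of condition and number and an iCre term per condition. Tests were two-sided, with Benjamini-Hochberg adjustment over 16760 genes and a threshold of 0.05. SE is the log2 difference over the root of F, and pair ratios use CPM + 0.5. Numbers were taken to pair the libraries because deviations from the group means correlated at 0.607, 0.568, 0.719 and 0.850 for numbers 1 to 4 between iCre and LacZ. The highest correlations with a different number were 0.515, 0.106, 0.451 and -0.199 in the same order, so the margin was narrowest for number 1. DESeq2 1.42.0 was the other tool. The model was tested on simulated data. Figures used matplotlib 3.10.9 in Python 3.11.15.

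Alternatives were no block, 4 number blocks, the 8 SS libraries alone, RLE factors, total counts, no filter, each number left out, and, added after the data were seen, number 4 left out of all conditions. The members and the 34 gene lists (624 members, 623 in the table) were chosen with earlier results of these data known, and lists got no test. Named are Pkm, Map3k7, called genes with symbols (up to 15 a direction), up to 4 further members of each list by p, and up to 8 genes a direction by smallest pair ratio. Not every eligible gene is printed (some are not reported here), and genes said to be picked after their values were seen fall outside the rule.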

Additional observations from a re-analysis of the deposited data

Results flagged for a closer look

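The 14 called genes and Map3k7, each under both vectors, gave 30 groups of 4 values. In 9 of them the number 4 library was far above the other 3. For Adamdec1 and Cyp2f2 in LacZ those other 3 values were 0. No chance rate applies, since the iCre and LacZ groups of a gene share replicate numbers and the called genes were picked in these same data. The iCre value of number 4 was 1.68 CPM for Adamdec1, 11.7 CPM for Igf2, 3.16 CPM for Cyp2f2 and 89.8 CPM for Slc14a1. The LacZ value of number 4 was 0.287 CPM for Adamdec1, 2.12 CPM for Igf2, 0.287 CPM for Cyp2f2, 30.4 CPM for Slc14a1 and 13.2 CPM for Tuba4a. Txnip was lower in 4 of 4 pairs in SS (log2 difference -0.62) and higher in 4 of 4 in TGFb (0.45). That pairwise difference was not tested, and its SS value against the mean of the other 3 conditions had an adjusted p of 1.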

How the results depend on the processing

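The count of called genes, 14, depended on the block and on the libraries fitted: edgeR called 0 with no replicate block (317 at an unadjusted p of 0.05), 0 with a replicate block of 4 numbers (827) and, with the block kept, 0 with the 8 SS libraries alone (1463), so also 0 higher and 0 lower in each. It called 24 without a low-count filter, 13 of them lower (13 of the 14 among the 24, Fmod lost), and DESeq2 called 60, 21 higher and 39 lower (13 of the 14, Igf2 lost). RLE factors gave 14 and total counts 17, each with all 14. Leaving out 1 replicate number gave 0 to 2 calls, 0 to 2 higher and 0 to 1 lower, and 0 without number 4 in SS. With number 4 left out of all conditions 14 were called, 4 higher and 10 lower, and 5 of the 14 remained: Pkm, Ccl7, Icam1, Spon1 and Fmod. The log2 difference of Pkm was -0.56 with no replicate block (adjusted p = 1) and with the block of 4 numbers (0.80), and -0.57 in the 8 SS libraries alone (0.105). Without 1 replicate it ran from -0.60 to -0.51 (adjusted p 0.0831 to 0.168). Adjusted p was 0.0211 with RLE factors, 0.0234 with total counts, 0.000467 without the filter, 0.0143 without number 4 anywhere and 2.46e-07 in DESeq2. All 14 genes kept their direction where they were tested. The causes of the lost calls were not tested. Txnip, Arrdc4, Slc2a1, Hk2, Aldh1a3 and Aldh3a1 passed the threshold in the fit with number 4 left out of all conditions, and not with number 4 left out of SS alone. Of these, Txnip also passed in DESeq2. Of the named genes not called, 13 passed in DESeq2. The medians of cholesterol synthesis ran from -0.32 to -0.22 and of glycolysis from 0.07 to 0.21 over all alternatives. Total counts moved the median of all genes by 0.04. At 0 counts, as for Cyp2f2 and Adamdec1 in LacZ libraries 1 to 3, a fold could not be measured at this depth.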
